A study of Drosophila melanogaster with 16 samples.

Results

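The lipase block consists of 7 genes, CG6271, CG6277, CG6283, CG6295, CG6296, CG17191 and CG17192, out of 17753 genes listed for each library. They were taken by symbol from a run of neighbouring pancreatic-type lipase genes on chromosome arm 3R of Drosophila melanogaster. The block was picked because some of its genes were already known to be lower in the mutants than in wild type in these same libraries, so the mutant and wild-type values below are a description and carry no test. Polyadenylated RNA of whole dechorionated embryos was measured in 16 libraries. The wild type was the OregonR strain, with 5 libraries at 14 to 17 h (titled replicates 1, 2, 3, 5 and 6) and 3 at 2 to 4 h. The mutants, both at 14 to 17 h, were ORC4 (4 libraries) and the transheterozygous ORE50/ORC4 (4 libraries), which carries a different allele on each homologue; the labels call both Lola-I mutants. Lola-I is a zinc-finger protein made from the gene lola, and the series asks what it does at promoters during development. The labels do not say how mutant embryos were picked from their siblings, nor whether the replicates came from separate collections, so p-values measure the spread between these libraries.

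Pancreatic-type lipases are secreted enzymes that split dietary triacylglycerol into fatty acids and monoacylglycerol in the gut lumen. In the fly they are made mainly by midgut enterocytes, which also secrete trypsins, Jonah-family serine proteases and lysozymes and which take up the released lipid for export on lipoproteins. Genes of this family often stand in runs of neighbouring copies, and embryos build the midgut before the larva first feeds.

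The whole block lies inside another gene. In the Ensembl annotation of the BDGP6.54 assembly, which uses dm6 coordinates, the 7 genes occupy 3R:27003236-27026109 on the minus strand, a stretch of 22874 bases. RYa-R, the receptor for RYamide neuropeptides, spans 3R:26996980-27057935 on the plus strand, and all 7 lipase genes sit antisense within its first intron (3R:26997343-27027919). No member overlaps any listed gene other than RYa-R. In coordinate order they are CG6296 (FBgn0039470, 3R:27003236-27005469), CG6295 (FBgn0039471, 3R:27005899-27007055), CG17192 (FBgn0039472, 3R:27017180-27018287), CG17191 (FBgn0039473, 3R:27018608-27019751), CG6283 (FBgn0039474, 3R:27020238-27021378), CG6277 (FBgn0039475, 3R:27022071-27023217) and CG6271 (FBgn0039476, 3R:27024968-27026109). CG6296 has 3 annotated exons and is the longest, at 2234 bases, while CG6295 has 2 exons in 1157 bases. Neighbours are between 320 and 1750 bases apart, except that 10124 bases separate CG6295 from CG17192. A roo transposable element is annotated in that gap, so CG6296 and CG6295 form a pair set apart from the other 5 genes.

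**Figure D1:**
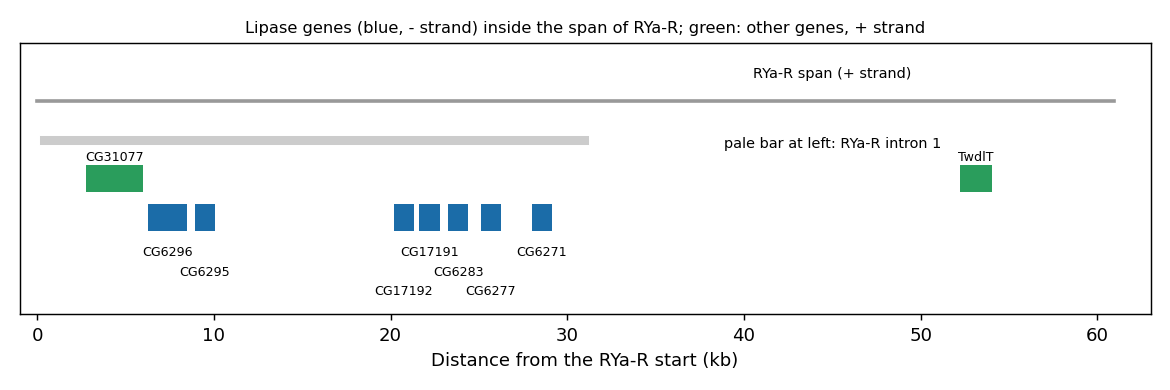
Map of the RYa-R span, with distance from its start in kb on the x axis; blue bars are the 7 lipase genes on the minus strand, green bars are CG31077 and TwdlT on the plus strand, and the pale bar is the first intron of RYa-R. CG6296 and CG6295 stand 10124 bases away from the other 5 lipase genes.

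The overlap matters for how the values are read. The listed length of nearly all genes (99.3%) was the full genomic span with introns, so a read in the block can be assigned to a lipase gene or to RYa-R, and strandedness is not given in the sources used here. Every estimated count above 0 was fractional, by a tolerance of 1e-06, for the 6 members that were detected, for example in 15 of 15 libraries for CG6277 and in 5 of 5 for CG6295. How alike the coding sequences of the members are was not analysed here, and the split of reads between them is uncertain to that degree. TPM, an abundance per length and per library, is close to a per-exon level for the members because their introns are short (1091 exonic bases of 1157 in CG6295), but it understates RYa-R, whose span of 60956 bases is mostly intron.

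Totals ran from 9025882 to 32521626 estimated counts per library. Late wild-type replicates 1 to 3 and all ORC4 libraries were deeper than late wild-type replicates 5 and 6 and all ORE50/ORC4 libraries, so depth and genotype cannot be told apart between the mutants. A count of 0 allows up to 3 counts, which is 0.0922 CPM (counts scaled to the library total) at the greatest depth and 0.332 CPM at the least; such floors cover counting error only. The lola gene as a whole was measured at 36.7 to 47.0 TPM in late wild type, while the ORC4 libraries held 39.2 to 61.3 TPM and the ORE50/ORC4 libraries 26.1 to 36.8 TPM. A value for the whole gene does not separate the Lola-I isoform and therefore does not check the labels. In whole embryos, fewer cells of a type and less RNA per cell cannot be told apart.

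In late wild-type embryos 3 members carried most of the block's RNA. CG6277 made up 41.5% ± 12.5 (SD, n = 5) of the summed TPM, CG6296 made up 26.2% ± 7.01 and CG6295 made up 22.8% ± 7.68. CG6283 followed at 6.15% ± 2.07, CG17191 at 2.15% ± 0.712 and CG6271 at 1.17% ± 0.778. CG17192 was listed at 0 in all 16 libraries, although it lies only 320 bases from CG17191. In mean TPM the order was CG6277 (55.9 ± 23.5), CG6296 (36.4 ± 15.9), CG6295 (32.3 ± 17.1), CG6283 (7.81 ± 1.21), CG17191 (2.77 ± 0.766) and CG6271 (1.64 ± 1.34). The first 3 overlapped across libraries and so did CG17191 and CG6271, whereas every library of CG6295 was above every library of CG6283, and every library of CG6283 was above every library of CG17191.

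CG6296 and CG6295, the isolated pair, kept close to the same ratio in wild type. In late wild-type replicates 1, 2, 3, 5 and 6 the TPM of CG6295 divided by that of CG6296 was 0.977, 0.834, 0.674, 0.944 and 0.915. The ratio of CG6277 to CG6296 in the same libraries was 0.542, 2.00, 1.46, 2.64 and 2.09, a wider range. CG6277 was higher in the shallow wild-type libraries (78.1 to 83.0 TPM) than in the deep ones (33.2 to 50.4 TPM), and CG6271 was too (2.31 to 3.69 against 0.559 to 0.921 TPM). CG6283 was only slightly so (8.43 to 9.10 against 6.09 to 8.38 TPM), and CG6295, CG6296 and CG17191 showed no such split.

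CG6295 was the member with a clear wild-type signal and an estimated count of 0 in every library of the other groups. Its estimated counts in late wild type were 730, 177, 329, 132 and 149, which is 59.9, 14.5, 23.2, 29.7 and 34.2 TPM, and it was listed at 0 in all 4 ORC4, all 4 ORE50/ORC4 and all 3 early wild-type libraries. Against the mean floor of 3 counts per library, the wild-type mean was at least 128-fold higher than ORC4 and at least 50.9-fold higher than ORE50/ORC4; from the lowest wild-type library alone these bounds were 56.9 and 22.6. The smaller bound for ORE50/ORC4 comes from the lower depth of those libraries.

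CG6296, its neighbour 429 bases away, was nearly as low. Its estimated counts were 1587, 450, 1036, 296 and 346 in late wild type (61.3, 17.4, 34.5, 31.4 and 37.3 TPM), then 17.9, 6.52, 4.18 and 0 for ORC4 (0.686, 0.272, 0.164 and 0 TPM), and 0 in all 4 ORE50/ORC4 libraries. Residual counts were thus seen in 3 of 4 ORC4 libraries and in none of the ORE50/ORC4 libraries. Mean CPM in wild type was 131 times that in ORC4, or 255 times without ORC4 replicate 1, the highest of that group. It was at least 122-fold higher than in ORE50/ORC4.

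CG17191 was a low-level gene with the same arrangement. It held 36.9, 27.8, 41.6, 7.68 and 16.2 estimated counts in late wild type (3.07, 2.31, 2.98, 1.75 and 3.76 TPM). In each mutant 1 of 4 libraries held less than 1 estimated count (0.653 in ORC4 and 0.791 in ORE50/ORC4) and the other 3 were at 0. The wild-type mean was at least 10.9-fold higher than ORC4 and at least 4.32-fold higher than ORE50/ORC4.

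CG6277 was also lower in the mutants but remained detected in every mutant library. In late wild type it measured 33.2, 34.8, 50.4, 83.0 and 78.1 TPM, from 401, 420, 706, 364 and 338 estimated counts. In ORC4 it measured 22.3, 15.8, 19.9 and 3.30 TPM, from 271, 176, 236 and 36.4 estimated counts, and in ORE50/ORC4 it measured 7.66, 2.56, 9.63 and 1.25 TPM, from 42.3, 13.8, 41.1 and 6.07. Every wild-type library stood above every mutant library, and mean CPM in wild type was 3.70 times that in ORC4 and 9.82 times that in ORE50/ORC4. The distance from ORC4 was smaller against the deep wild-type libraries alone, with a fitted log2 fold change of -1.39 in place of -1.91, and CG6277 was then no longer called.

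CG6283 resembled CG6277 at a lower level. It measured 6.09, 7.08, 8.38, 9.10 and 8.43 TPM in late wild type, then 1.71, 1.62, 3.04 and 0.585 TPM for ORC4, and 0.327, 1.27, 2.00 and 0.222 TPM in ORE50/ORC4. The estimated counts were 36.2 to 117 in wild type, 6.41 to 35.8 in ORC4 and 1.07 to 8.48 in ORE50/ORC4. No mutant library reached the lowest wild-type library, and mean CPM in wild type was 4.55 times that in ORC4 and 7.73 times that in ORE50/ORC4 (12.96 times without ORE50/ORC4 replicate 3). In ORE50/ORC4, 2 of 4 libraries were at or under 3 counts. The mean there, 0.425 CPM, was near the mean floor of 0.271 CPM, so the ratios to ORE50/ORC4 are uncertain.

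CG6271, at the right-hand end of the block, was the detected member whose groups overlapped. It measured 0.559, 0.921, 0.702, 3.69 and 2.31 TPM in late wild type, then 1.19, 0.667, 1.55 and 0 TPM for ORC4, and 0.637, 0.007, 0.695 and 0 TPM in ORE50/ORC4. With at most 18.2 estimated counts in any library, its depth did not allow more than a range: 2 of 4 ORC4 libraries exceeded the 3 deep wild-type libraries.

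**Figure D2:**
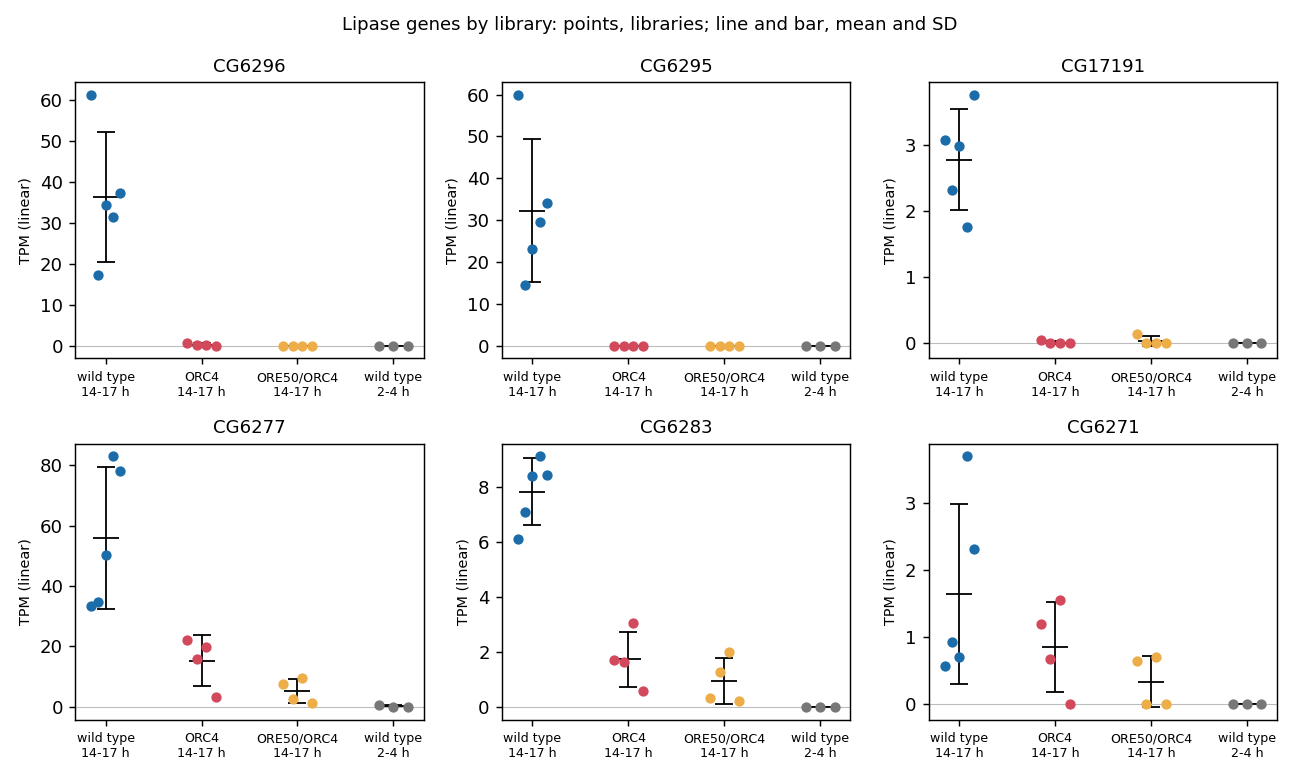
TPM on linear axes for the 6 detected lipase genes in the 4 groups; points are libraries, horizontal lines are means and bars are SD. CG6296, CG6295 and CG17191 lie at or near 0 in both mutants, CG6277 and CG6283 keep part of their level, and CG6271 overlaps between groups. The mean of CG6283 in ORE50/ORC4 is near the floor.

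Of the 7 genes, 6 passed the filter on low counts at 14 to 17 h and CG17192 did not. By edgeR's quasi-likelihood test with Benjamini-Hochberg adjustment over all 11431 genes tested, 5 of the 6 were called lower in ORC4 and 5 in ORE50/ORC4, the exception being CG6271 in both. Against late wild-type replicates 1, 2 and 3 alone CG6277 was not called in ORC4, and against replicates 5 and 6 alone CG6271 was called lower in ORE50/ORC4 (log2 fold change -3.19). The share of all tested genes called lower was 17.2% in ORC4 (15.5% higher, 32.7% in either direction) and 27% in ORE50/ORC4 (27% higher, 54% in either direction). All 5 were also below wild type in every mutant library, as were 14.4% of tested genes in ORC4 and 23.6% in ORE50/ORC4. Since the block was chosen on these contrasts, nothing is read from the members' counts against those shares. The 2 contrasts also share the wild-type libraries.

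The makeup of the block differed along with its sum. The summed TPM of the 7 genes was 164, 77.0, 120, 159 and 164 in late wild type, with 25.9, 18.3, 24.6 and 3.88 for ORC4, and 8.77, 3.83, 12.3 and 1.47 for ORE50/ORC4. What was left in the mutants was largely CG6277, which made up 84.4% ± 2.51 (SD, n = 4) of the sum in ORC4 and 79.3% ± 9.23 in ORE50/ORC4, followed by CG6283 at 10.7% ± 3.74 and 17.0% ± 12.1. CG6277 and CG6283, which were above 0 in every mutant library, are neighbours, with CG6271 on one side of them and CG17191 on the other. CG6271 was at or under 3 counts in 3 of 4 ORE50/ORC4 libraries. In ORC4 its mean of 0.356 CPM was close to the 0.253 CPM of CG6296, so no order by position is read from the members.

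**Figure D3:**
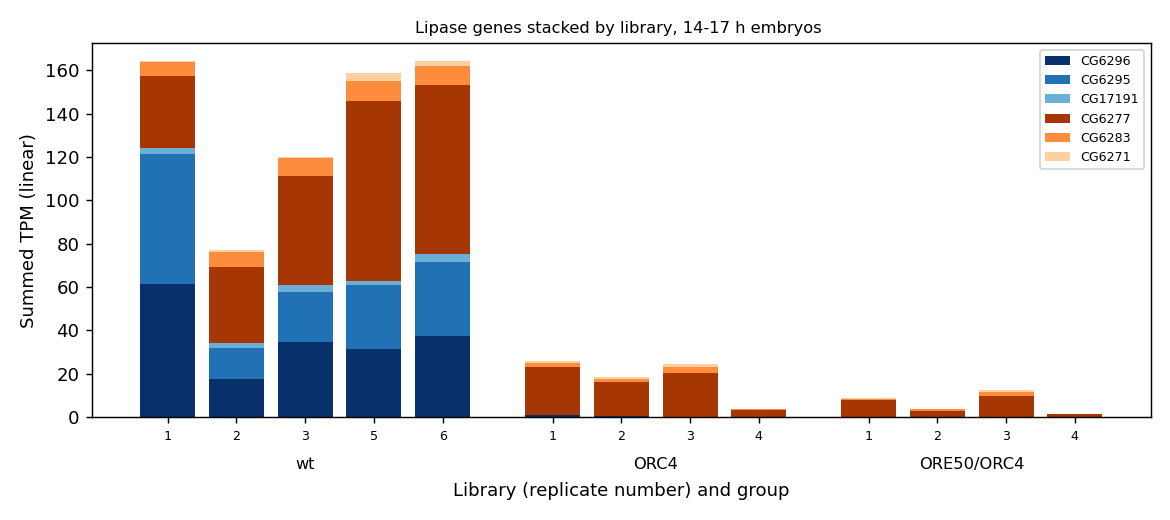
Summed TPM of the lipase genes on a linear axis from 0, 1 bar per 14 to 17 h library with replicate numbers below; blue segments are CG6296, CG6295 and CG17191 and orange-brown segments are CG6277, CG6283 and CG6271. Blue segments fill a large share of each wild-type bar and are almost missing from the mutant bars, and ORC4 replicate 4 is the lowest ORC4 bar at 3.88 TPM.

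ORC4 replicate 4 stood below the other ORC4 libraries for CG6277, CG6283, CG6271 and CG6296. The same library had the lowest summed TPM of 36 midgut digestive genes in its group, 613 TPM where the highest ORC4 library had 1271. Without it the members called between ORC4 and wild type remained 5 in number.

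RYa-R, the gene around the block, could have taken reads from the lipase genes or given reads to them. It held 201, 139, 218, 85.0 and 53.2 estimated counts in late wild type, with 151, 194, 144 and 231 for ORC4, and 77.7, 78.3, 33.5 and 59.8 for ORE50/ORC4. Relative to library size it was level: the log2 fold change was -0.01 in ORC4 (SE 0.21, edgeR adjusted p = 0.977) and -0.23 in ORE50/ORC4 (SE 0.22, edgeR adjusted p = 0.393), both below their errors or close to them, and the sign in ORC4 turned in several alternatives. Summing all reads of the 7 lipase genes and RYa-R removes the split between them. That sum was 45.3 to 106 CPM in late wild type, with 9.91 to 16.5 CPM for ORC4 and 6.16 to 10.4 CPM for ORE50/ORC4, and wild type did not overlap either mutant. CG17191 alone is not resolved in this way, since its counts summed with those of RYa-R were not called in either mutant.

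The span of RYa-R also holds genes on its own strand. TwdlT, a cuticle protein gene of the Tweedle family, rose by 0.75 on the log2 scale in ORC4 (SE 0.18, edgeR adjusted p = 0.00575) and by 1.38 in ORE50/ORC4 (SE 0.18, edgeR adjusted p = 3.73e-05). Over all genes, 15.5% were called higher in ORC4 and 27% in ORE50/ORC4. TwdlT was named after its values were seen, so nothing is read from its p-values. CG31077, which lies between the start of RYa-R and CG6296, was listed at 0 in all 16 libraries.

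Comparing the mutants with each other uses no wild-type library in the contrast and was tested. Of the 6 members tested, most passed the filter on low counts through the wild-type libraries: with the filter applied to the mutants alone, 2 were tested, CG6277 and CG6283, and neither was called. In the fit of all late libraries edgeR called 0 of the 6 and none had an unadjusted p under 0.05, while DESeq2 called 1, CG6296. The share of all genes called was 37.3%, and since 4 of the 6 were tested only because of their wild-type counts, nothing is read from the comparison with it. CG6277 was lower in ORE50/ORC4 in its mean, by a fitted -1.41 on the log2 scale (SE 0.65, edgeR adjusted p = 0.107), and the groups overlapped through ORC4 replicate 4. Without that library CG6277 was called, at -1.75 (edgeR adjusted p = 0.0223). For CG6283 the log2 fold change was -0.80 (SE 0.58, edgeR adjusted p = 0.305) and for CG6271 it was -1.29 (SE 1.16). CG6296 had counts in 3 ORC4 libraries and none in ORE50/ORC4, at a mean ORC4 level under the floor of the shallower ORE50/ORC4 libraries. CG6271 and CG6296 were tested only because of their wild-type counts. No p is given for them, and the DESeq2 call of CG6296 supports nothing. CG17191 was under 1 count in every library of both groups and CG6295 was at 0. These errors leave room for differences of more than 2-fold in CG6277, so the mutants are not shown to be alike.

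The stages were compared within wild type, a contrast that did not choose the genes but shares the late wild-type libraries with those that did. The block was nearly silent at 2 to 4 h: summed TPM was 0.657, 0 and 0.005. CG6277 supplied almost all of it, with 8.21 estimated counts in early replicate 1, 0 in replicate 2 and 0.066 in replicate 3, and CG6296 had 0.298 counts in replicate 1. CG6271, CG6283, CG6295, CG17191 and CG17192 were at 0 in all 3 libraries. The 6 members that passed the filter were all called higher at 14 to 17 h by edgeR, where 48.1% of the 11636 genes tested rose (89.9% were called in either direction); these 6 passed the filter through the late libraries alone, so their count supports nothing.

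For the same reason no p is given for single members. The mean CPM of CG6277 was 265 times higher in late than in early embryos, a ratio that rests mostly on the 8.21 counts of early replicate 1: it was at least 157-fold without that library and 177-fold without early replicate 2. Against the floor, CG6296 was at least 248-fold higher in late embryos and CG6295 at least 104-fold higher. CG6283 was at least 24.7-fold higher, CG17191 at least 8.80-fold higher and CG6271 at least 5.17-fold higher. In each of these 6 genes every late library was above every early one, as it was in 47.5% of tested genes. RYa-R also rose, by 1.61 on the log2 scale (SE 0.24, edgeR adjusted p = 0.000107).

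The genes whose late pattern most resembled the block were found by Pearson correlation of log2(TPM + 1) with the log2 of the summed block over 13 libraries, among 7088 genes with a mean of at least 10 TPM in late wild type. The libraries share genotype groups and depth, so the values are descriptions. CG46303 came first (r = 0.987), with means of 98.1 TPM in late wild type, 28.4 TPM for ORC4 and 18.2 TPM for ORE50/ORC4, although its span overlaps that of Sec20. Next were CG17145 (r = 0.982; 21.4, 7.01 and 4.23 TPM in the same order of groups), CG11131 (r = 0.980; 120, 24.4 and 7.28 TPM), alphaTry, a trypsin (r = 0.980; 179, 27.3 and 7.93 TPM), and CG15597 (r = 0.977; 31.6, 7.32 and 2.84 TPM). All 5 kept a measurable level in both mutants, as CG6277 did. CG6277 made up most of the summed block there, so this likeness follows in part from how the genes were chosen.

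Most genes on a list of lipases elsewhere in the genome were not called in ORC4, and those called in the mutants were mainly higher. Of 26 genes listed as other pancreatic-type lipases, 18 were tested. The 26 include the yolk protein genes Yp1, Yp2 and Yp3. For ORC4, 5 were called higher and none lower (2 to 6 calls in either direction across the alternatives). Over all genes 15.5% were higher and 17.2% lower. The median log2 fold change of the list was 0.17 beside 0.00. Yp3 was among the 5 called higher (log2 fold change 0.96, SE 0.21, edgeR adjusted p = 0.00369). In ORE50/ORC4 8 were called higher and 2 lower, beside 27% each way over all genes, with a median of 0.33 beside 0.01. CG13562 rose in both mutants, from 4.02 ± 1.20 TPM in wild type to 12.2 ± 1.82 in ORC4 (log2 fold change 1.51, SE 0.21, edgeR adjusted p = 0.000146) and 14.1 ± 4.09 in ORE50/ORC4 (1.88, SE 0.22, edgeR adjusted p = 1.75e-05). CG5162 fell in ORE50/ORC4, from 12.2 ± 6.92 to 1.59 ± 1.34 TPM (log2 fold change -2.81, SE 0.64, edgeR adjusted p = 0.00262). The smaller calls of CG7367 in ORC4 and of CG1986 and CG18641 in ORE50/ORC4 were between 0.33 and 0.42 on the log2 scale and were lost in some alternatives: CG7367 lost its call without ORC4 replicate 1 (edgeR adjusted p = 0.0559) or replicate 4 (edgeR adjusted p = 0.0573). The summed TPM of the 26 genes was 211 to 229 in late wild type, with 221 to 259 for ORC4 and 222 to 246 for ORE50/ORC4, so the groups overlapped. Such a sum is carried by the genes of high level and does not show single genes that fell, such as CG5162. The block was chosen for being lower in the mutants, so nothing is read from its sum beside this one.

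Between the stages, 14 of 16 tested genes of this list rose and 1 fell, beside 48.1% of all tested genes higher and 89.9% called in either direction. Genes near 0 at 2 to 4 h, such as CG10116 and CG34447 (means of 0.112 and 0 estimated counts), passed the filter through the late libraries alone. Nothing is therefore read from the 14 of 16 beside the share over all genes. CG5665 was the one that fell, from 11.0 ± 1.29 TPM at 2 to 4 h to 0.369 ± 0.255 TPM in late wild type (log2 fold change -5.01, edgeR adjusted p = 3.49e-07). CG10116 was among those that rose, from at most 0.030 TPM to between 41.3 and 51.5 TPM, and measured 46.7 ± 11.4 TPM in ORC4 and 39.8 ± 11.3 TPM in ORE50/ORC4.

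Acid lipases, a separate family that works in lysosomes and in the gut, were mixed. Of 20 genes, 11 were tested; 3 were lower and 2 higher in ORC4, and 3 were lower and 3 higher in ORE50/ORC4. Over all genes 32.7% and 54% were called, so the share in ORE50/ORC4 is near that background. Lip1 was at 38.5 to 55.4 TPM in late wild type and rose to 75.6 ± 23.9 in ORC4 (log2 fold change 0.68, edgeR adjusted p = 0.0114) and 131 ± 30.7 in ORE50/ORC4 (1.63, edgeR adjusted p = 1.11e-05). Its call in ORC4 was lost against wild-type replicates 1, 2 and 3 alone (edgeR adjusted p = 0.0532) and against replicates 5 and 6 alone (edgeR adjusted p = 0.0559). It was also lost over the libraries that share replicate numbers, without the block (log2 fold change 0.43, edgeR adjusted p = 0.077). Lip2 rose in ORC4 by 1.60 on the log2 scale (edgeR adjusted p = 2.62e-06). CG2772 fell in ORE50/ORC4, from 12.2 ± 2.80 to 3.26 ± 0.877 TPM (log2 fold change -1.81, edgeR adjusted p = 0.00103), and CG3635 fell in both mutants, by a log2 change of -0.97 for ORC4 and -0.96 for ORE50/ORC4 (edgeR adjusted p = 0.00205 and 0.00148), though not for ORC4 against wild-type replicates 5 and 6 alone (edgeR adjusted p = 0.069). Lip4 fell in ORC4, by 0.75 on the log2 scale (edgeR adjusted p = 0.00049). CG31871 was 0.36 higher in ORE50/ORC4 (edgeR adjusted p = 0.00285), a call that was lost in 4 alternatives, with limma on either scale and over the libraries that share replicate numbers, with or without the block (adjusted p from 0.0535 to 0.13).

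Genes that absorb, carry, make and store lipid were more often lower than higher. All 22 on the list were tested; 12 fell and 4 rose in ORC4 (median -0.25) and 12 fell and 5 rose in ORE50/ORC4 (median -0.41), beside 17.2% lower and 15.5% higher over all genes in the first and 27% each way in the second. FASN1, the fatty acid synthase, fell from 102 ± 21.6 TPM to 39.6 ± 9.47 in ORC4 (log2 fold change -1.43, SE 0.22, edgeR adjusted p = 0.00032) and 11.6 ± 2.15 in ORE50/ORC4 (-3.06, SE 0.24, edgeR adjusted p = 5.74e-07). Npc2a, a sterol-binding protein, changed by -1.19 and -1.96 on the log2 scale (edgeR adjusted p = 6.52e-06 and 1.12e-07), and Lsd-1, a lipid-droplet perilipin, by -1.19 and -1.10 (edgeR adjusted p = 0.000137 and 0.000176). Hr96, a nuclear receptor known for control of gut lipid genes, rose by 0.33 and 0.58 on the log2 scale (edgeR adjusted p = 0.00534 and 4.87e-05). AkhR, the receptor of the lipid-mobilising adipokinetic hormone, rose by 0.64 in ORC4 (edgeR adjusted p = 0.00408, and 0.0537 with late replicates 5 and 6 as the sole wild type), and apolpp, the lipoprotein backbone, rose by 0.62 in ORE50/ORC4 (edgeR adjusted p = 0.00337). The calls of Hsl in ORC4 (0.53, edgeR adjusted p = 0.0467) and of AkhR in ORE50/ORC4 (0.38, edgeR adjusted p = 0.041) were each lost in most leave-one-out fits, and without ORC4 replicate 2 Hsl was at 0.33 (edgeR adjusted p = 0.187).

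Other digestive enzymes of the midgut were mostly lower as well. Of 36 midgut digestive genes, 32 were tested. In ORC4, 22 fell, 2 rose and 8 were not called (median -4.25). In ORE50/ORC4, 27 fell, 1 rose and 4 were not called (median -5.18). The shares over all genes were those given above. Part of this list was already known to fall in these libraries, so its direction is not independent evidence. LysB, a lysozyme of a family of near-identical copies, was listed at 27.2 ± 8.96 TPM in late wild type and at 0 in all 8 mutant libraries. Amy-p, an amylase, went the other way in ORC4, from 2.19 ± 0.437 to 5.74 ± 2.31 TPM (log2 fold change 1.35, edgeR adjusted p = 0.00445, and 0.0944 with late replicates 5 and 6 as the sole wild type). Its level in ORE50/ORC4 was 3.3 ± 1.1 TPM. Summed over the 36 genes, TPM was 2501 to 6452 in late wild type, with 613 to 1271 for ORC4 and 573 to 739 for ORE50/ORC4.

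Genes for regulators of the endoderm that forms the midgut were also detected in every group. Values of whole embryos do not show where these genes were expressed, so their sum does not measure midgut tissue. The summed TPM of GATAe, srp, fkh, lab and hkb, transcription factors of the endoderm and early midgut, was 69.6 to 90.3 in late wild type, with 80.6 to 92.8 for ORC4 and 65.5 to 98.8 for ORE50/ORC4, and 0 of the 5 genes were at 0 in any group. GATAe was 19.7 ± 1.46 TPM in wild type, 25.3 ± 2.85 in ORC4 and 24.3 ± 4.43 among ORE50/ORC4 libraries. Of these 5 genes, 0 were lower and 2 higher in ORC4, and 1 was lower and 2 higher in ORE50/ORC4. Over all genes, 17.2% were lower and 15.5% higher in ORC4, and in ORE50/ORC4 27% went each way. Neuron markers were lower in sum, at 252 to 279 TPM in late wild type, with 165 to 181 for ORC4 and 131 to 189 for ORE50/ORC4, with 2 and 3 of 5 genes called lower. Muscle, fat body and trachea markers had 1 of 5 genes called lower in each mutant, near the shares over all genes, and fat body also had 1 called higher. With 5 genes per list, nothing is read from the counts of these marker lists. The fat body sum was 583 to 814 TPM in late wild type, with 420 to 640 for ORC4 and 414 to 656 for ORE50/ORC4, so the groups overlapped. The part of cell number, embryo age or tissue makeup in the lipase values was not tested.

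**Figure D4:**
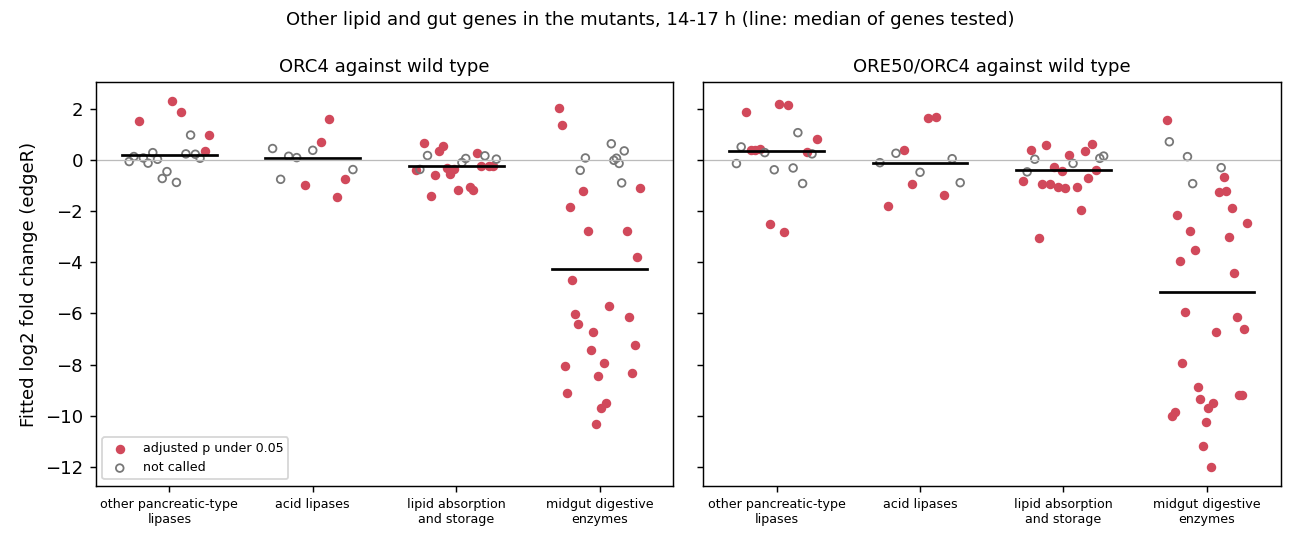
Fitted log2 fold changes of genes in 4 lists in ORC4 (left) and ORE50/ORC4 (right) against late wild type; filled points have an edgeR adjusted p under 0.05, open points do not, and horizontal lines are medians of the genes tested. Genes listed as other pancreatic-type lipases (Yp3 included) lie on both sides of 0, with medians above it (0.17 and 0.33). Acid lipases scatter around 0 (medians 0.085 and -0.113). Lipid-handling genes lie more often below it (medians -0.25 and -0.41). Midgut digestive enzymes lie mostly far below 0 (medians -4.25 and -5.18).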

How the data were processed

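The authors deposited, per the file headers, 1 table per library that gives each gene its length, estimated count and TPM. The submitters' processing notes name CASAVA 1.8.2, kallisto with no version, and the build dm6; strandedness and annotation are not given in the sources used here. Symbols and positions came from Ensembl BDGP6.54 (17625 of 17753 genes matched). Deposited TPM values were used for levels. Estimated counts were rounded and fitted with edgeR 4.0.16 under R 4.3.3 (quasi-likelihood test, TMM, filterByExpr with a minimum of 10 counts); a call is a Benjamini-Hochberg adjusted p under 0.05 over all genes tested. The 13 late libraries were fitted together and the 8 wild-type libraries separately. Standard errors were derived from the fold change and the F statistic. The fits were first tested on simulated data. Alternatives used DESeq2 1.42.0 and limma 3.58.1, other scalings and filters, left-out libraries and a replicate block.

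The members and all gene lists were chosen with earlier results of these data known. Named genes are the members, the genes overlapping them, up to 3 called genes per list and direction with the greatest fold change and a mean of at least 100 counts in the higher group, and the 5 genes most like the block; not every one is printed, and lola, GATAe, TwdlT and CG31077 are named for their role or place, TwdlT and CG31077 after their values were seen. Other lipases were taken from a list of names, since a search by protein similarity was not used here. That list includes Yp1, Yp2 and Yp3, which are named for that reason and not by the rule on fold change and counts. For a group with 3 counts or fewer in each library, the fold is a bound set by the mean, over the group, of each library's 3-count floor.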

Additional observations from a re-analysis of the deposited data

Results flagged for a closer look

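Among the 15 combinations of a lipase gene and a group of 4 or 5 libraries that held any signal, 2 were flagged for a single library apart from the others. CG17191 measured 0.054 TPM in 1 ORC4 library and 0 in the other 3, and it measured 0.144 TPM in 1 ORE50/ORC4 library and 0 in the other 3. Both values stand for less than 1 estimated count. With the other 3 libraries at 0, any value above 0 is flagged whatever its size, so nothing is read from these flags. The nominal rate of 1 flag in 20 groups does not apply to such ties at 0.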

How the results depend on the processing

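Across 90 results, 1703 of 1776 values from alternatives kept their direction and their side of the threshold, or for counts stayed within 1.5 times. Between the mutants, 0 members were called, but 1 of 6 was called with DESeq2 and with limma on log2(TPM + 0.1) (CG6296 in both), 1 of 2 tested with the replicate block (CG6277), and 0 to 1 when libraries were left out (1, CG6277, without ORC4 replicate 4). CG6296 was tested there only because of its wild-type counts, so its calls support nothing. The list of other pancreatic-type lipases had 5 genes called in ORC4, Yp3 among them. These became 3 with a mean of at least 10 counts and 2 against late wild-type replicates 5 and 6 alone. They became 3 to 5 when libraries were left out (3 without ORC4 replicate 1 or 4). The 5 acid lipases called in ORC4 became 2 against late wild-type replicates 5 and 6 alone. Some directions turned. CG6271 in ORC4 went from -0.79 to 0.55 with the replicate block, 0.57 in the same libraries without it and 0.15 against late wild-type replicates 1, 2 and 3 alone. RYa-R in ORC4 went from -0.01 to 0.0109 and 0.0351 with limma on log2(TPM + 1) and log2(TPM + 0.1), 0.052 against late wild-type replicates 1, 2 and 3 alone, and -0.15 to 0.10 when libraries were left out. CG17191 between the mutants went from 0.94 to -0.21 when summed with RYa-R and to -1.33 to 2.19 when libraries were left out. Summed with RYa-R, CG17191 was not called in ORC4 (-0.25, edgeR adjusted p = 0.342) or ORE50/ORC4 (-0.46, edgeR adjusted p = 0.0687). The cause was not tested. Same-numbered libraries did not all deviate together (correlations from -0.153 to 0.441 across genes, the highest for replicate 3 between the mutants). Whether a shared number means a shared collection is not given by the labels and was not tested. With the replicate block, 79 of 85 results stayed on the same side, and CG6277 between the mutants was called (-1.51, edgeR adjusted p = 0.0127). Summing the 7 members to 1 row was not run, since it gives no count of members. Depth limits CG6271, CG17191, the values of CG6283 in ORE50/ORC4 and all bounds in ORE50/ORC4.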
